A study of Homo sapiens with 21 samples.

Results

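At 1875 genomic regions in Jurkat cells, truncated RUNX1 had a summit of chromatin immunoprecipitation (ChIP-seq) signal in all 4 of its peak lists, whereas the 6 lists from G365R and WT cells had no summit there. The regions were chosen by a fixed rule. Every summit, the point of highest signal in a peak, was extended by 100 bp to both sides, and overlapping stretches of the 14 deposited lists were merged. This gave 190855 regions on chromosomes 1 to 22 and X, in hg19 coordinates. Of these, 29789 held a summit in each of the 4 HA lists of the R232fs and Y287X clones. The 1875 regions with no summit in any G365R or WT list were 6.29% of the 29789 and are called the selected regions. The other 27914 held a summit in at least 1 G365R or WT list and are called the other HA regions. The choice used the summit calls of 10 lists, so presence in those lists, and the strength of the HA peaks beside that of other regions, are given as descriptions with no test. Tests are kept for the TY1 lists of the truncating clones and for differences among the 8 truncating lists. The regions did not belong to the truncated protein alone, since 1786 of them (95.3%) also held a TY1 summit of wild-type RUNX1 in at least 1 of the same clones.

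RUNX1 is a transcription factor of blood cell development that binds DNA through its Runt domain, together with the partner protein CBFB. The part of the protein that follows the Runt domain carries its transactivation and inhibitory regions and contacts with cofactors. RUNX1 has roles in T-cell development and is mutated in a share of leukaemias. A frameshift or stop codon downstream of the Runt domain leaves the DNA-binding domain in place and removes the sequence that follows.

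Jurkat is an established human T-cell leukaemia line, and all cells were untreated. Single clones carried a knock-in of R232fs (a frameshift) or Y287X (a stop codon), both truncating, or of G365R (a single amino acid replacement). In these clones HA tagged the mutant and TY1 the wild-type protein, and in the parental (WT) cells both tags marked wild-type protein. Each mutant genotype had 2 clones with 1 HA and 1 TY1 list per clone, and WT had 1 list per tag. A comparison between genotypes therefore rests on 2 clones each, and p-values measure the spread between these clones.

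The 8 lists of the truncating clones held 40112 to 86433 peaks and the 6 lists of G365R and WT cells 30563 to 61793. By tag, truncating HA lists held 51892 to 86433 peaks and TY1 lists 40112 to 81561. In G365R and WT cells HA lists held only 30563 to 37472 and TY1 lists 57378 to 61793. These HA lists also had a summit at fewer of the other HA regions than the TY1 lists. The shares were 60.5% against 93.5% in the first G365R clone and 59.2% against 91.3% in WT. Absence from these HA lists is thus the weaker condition. Truncating lists and the 6 others differed in kind. Summits with a pileup of 500 fragments or more numbered 536 to 3273 in each truncating list and 0 in each of the 6 others. Genotype and kind of list cannot be told apart here, and this holds for the absence that defines the selected regions. No measure of library depth is in a peak list. The nearest to one, the commonest local background of a list, was 2.83 to 4.02 fragments per base in the truncating lists and 3.22 to 4.61 in the others. Among the 4 HA lists the first Y287X clone had the fewest peaks (51892, against 67594 to 86433), and without that clone the rule gave 5271 regions.

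The selected regions were weak to moderate peaks of truncated RUNX1. Fold enrichment, the authors' ratio of the signal at the summit to the local background, had a median of 3.69 and 3.80 in the HA lists of the first and second R232fs clone and of 3.24 and 3.86 in those of the Y287X clones. At the other HA regions the medians were 4.49, 5.05, 3.79 and 4.85 in the same order, higher in each of the 4 lists. The deposited −log10 q, which grows with the significance of a peak, differed more. Its medians were 7.28, 9.67, 5.21 and 9.07 at the selected regions and 26.0, 39.3, 17.5 and 34.9 at the other HA regions. Selected peaks were also narrower in each HA list, with median widths of 430, 478, 373 and 464 bp against 629, 691, 542 and 657 bp.

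Within a whole HA list as deposited the selected regions stood near the middle. The median selected fold lay at the 52.1 ± 9.30 percentile of the list's peaks (SD, n = 4 lists, 38.7 to 59.96). With lists of equal length, which gave 901 selected regions, it was 34.3. With the median of the 4 HA lists as a region's strength, fold ran from 1.42 to 32.7, with quartiles of 3.02 and 4.45. Only 266 regions (14.2%) reached a fold of 5, and 14 reached 10. The weakest of its 4 HA calls had a −log10 q under 2 at 227 regions and of 10 or more at 145. Just inside the authors' threshold were chr12:22274222-22274493, chr14:62304137-62304573 and chr13:99215751-99216134. Their lowest −log10 q was 1.31 each time, in the first, second and first Y287X clone respectively.

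**Figure D1:**
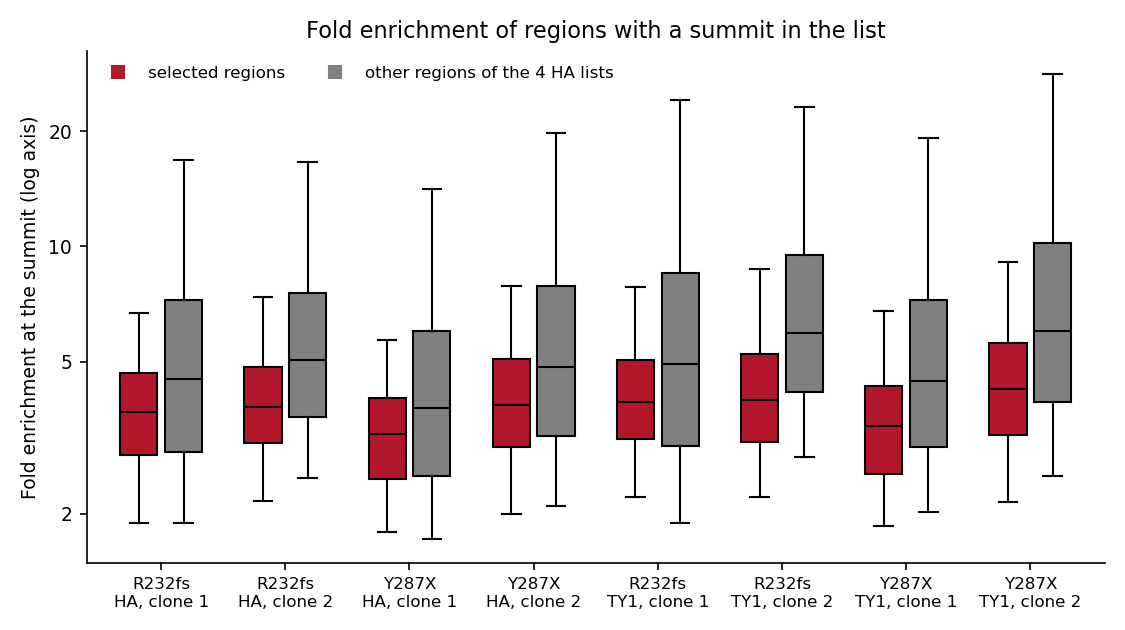
Fold enrichment at the summit (log axis) in the 8 HA and TY1 lists of the truncating clones, for selected regions (red) and other HA regions (grey) that hold a summit in the list. Boxes span the quartiles with the median as a line and whiskers run from the 5th to the 95th percentile over regions; selected regions have the lower median in each of the 8 lists.

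The fragments behind these folds showed where the regions sat. Fold and −log10 p together fix the number of fragments over the summit (pileup) and the local background the caller compared it with. The median selected pileup was 28, 34, 26 and 31 fragments in the 4 HA lists, beside 99.0, 118, 87.0 and 119 at the other HA regions. The local background was lower as well, with medians of 5.65, 6.94, 6.55 and 5.93 fragments per base against 17.0, 18.7, 18.6 and 18.5. A background of 30 or more was found at 213 selected regions (11.4%) and at 11667 of the other HA regions (41.8%). Most selected regions were thus small peaks on a low background, in the sense of the caller's own values.

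A few did not have that form. Pileups of 500 fragments or more were found at 5 selected regions, which were singled out after their values were seen. The highest, chr21:9825848-9826049, had a median pileup of 4835 fragments on a background of 2804, which is a fold of only 1.72. The region chr5:11451-11681, close to the start of the chromosome, had 1458 fragments on a background of 230 and a fold of 6.35. The others were chr17:79399036-79399239, chr5:75698805-75699037 and chr21:43299137-43299400. Known artefact-prone stretches of the genome were not removed, and their part in these values was not tested.

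**Figure D2:**
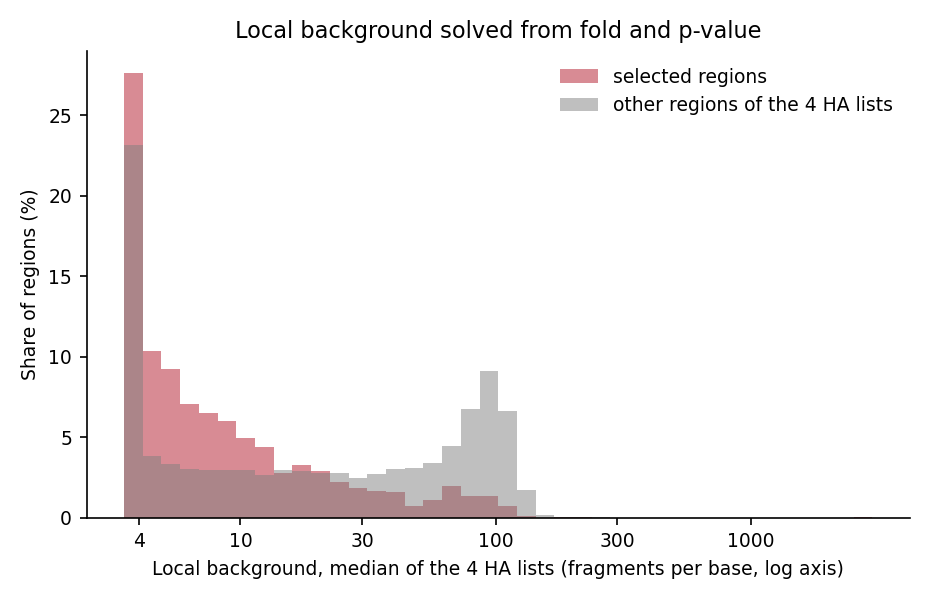
Share of regions (percent, vertical axis) by local background, as the median of the 4 HA lists in fragments per base (log axis), for 1875 selected regions (red) and 27914 other HA regions (grey). The other HA regions have a second group at about 30 to 150 fragments per base that few selected regions share; the medians are 6.18 and 18.1.

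Wild-type RUNX1 of the same cells was found at most selected regions, with a lower share in each clone than at the other HA regions. A TY1 summit was present at 560 selected regions (29.9%) in the first R232fs clone and at 1320 (70.4%) in the second. In the first and second Y287X clone it was present at 1032 (55.0%) and 1633 (87.1%). The shares at the other HA regions were 82.3%, 94.5%, 92.8% and 97.9% in the same order. The share was thus lower at the selected regions in 4 of 4 clones, with a mean of 60.6 ± 24.3% against 91.9 ± 6.72% (SD, n = 4). The mean difference was -31.3 ± 17.9 percentage points (exact sign permutation over clones, 2-sided p = 0.125, the smallest that 4 clones allow). The TY1 lists of the truncating clones played no part in the choice, but absence from 3 TY1 lists of G365R and WT cells did, and the selected regions were also weaker HA peaks. The part of either in the lower share was not tested.

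The order of the clones followed the length of their TY1 lists, which held 40112, 59140, 49749 and 81561 peaks. Over the 4 lists the selected regions' shares had the same order as these numbers, and whether list length sets the share was not tested. By genotype the share was 50.1 ± 28.7% in R232fs and 71.1 ± 22.7% in Y287X (SD, n = 2 each). This difference of -20.9 percentage points was smaller than the spread between clones (exact permutation of 2 against 2 clones, 2-sided p = 0.667, where the smallest possible is 0.333). Without the first R232fs clone it was -0.58 percentage points, and without the second Y287X clone -4.45. Without the second R232fs or the first Y287X clone it was -39.6 and -40.2.

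**Figure D3:**
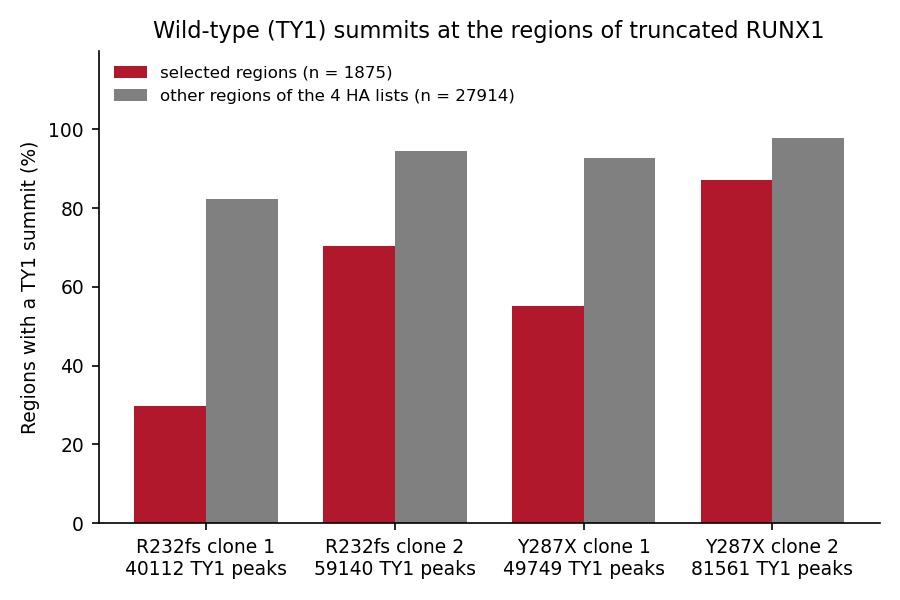
Share of regions (percent) with a TY1 summit, the mark of wild-type RUNX1, in each of the 4 truncating clones, for the selected regions (red) and the other HA regions (grey). The number of peaks in the TY1 list is given under each clone; the selected share is the lower in each clone, from 29.9% against 82.3% to 87.1% against 97.9%.

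The lower TY1 share was also seen among regions of like HA fold. With a median HA fold under 3 the mean TY1 share over the 4 clones was 60.7% at 462 selected regions and 88.7% at the other HA regions. From 3 to 4 it was 53.7% of 695 regions against 88.7%, and from 4 to 5 59.4% of 452 against 87.6%. From 5 to 7 the share was 80.7% of 211 regions against 93.0%, and from 7 up it was 80.0% of 55 against 98.8%. The selected share was the lower in each of the 5 bands. The same held in bands of local background. Below 5 fragments per base the shares were 57.0% and 89.1%, and at 30 or more they were 68.3% and 94.4%. Regions of one band can still differ in strength, since the bands are broad and match fold or background alone. The median HA pileup was 29.0 fragments at all selected regions and 104 at all other HA regions. Bands of pileup or −log10 q were not tested.

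Few selected regions lacked wild-type RUNX1 in every truncating clone, and few had it in all. A TY1 summit was found in 0 of the 4 lists at 89 regions (4.75%), in 1 at 288, in 2 at 573, in 3 at 589 and in all 4 at 336 (17.9%). Of the other HA regions 78 (0.279%) were in no TY1 list and 21390 (76.6%) in all 4. Median HA fold was 3.48, 3.63, 3.61 and 3.67 for selected regions in 0 to 3 TY1 lists and 4.40 for those in all 4. Both R232fs TY1 lists held 460 selected regions and both Y287X TY1 lists 951. The TY1 pattern split by clone number more than by genotype. Both second clones and neither first clone had a TY1 summit at 348 regions, whereas both Y287X clones and neither R232fs clone had one at 137. The reverse patterns were rare, with 9 regions in both first clones only and 13 in both R232fs clones only. The second clones have the longer TY1 lists.

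The same rule applied to wild-type RUNX1 found fewer regions with all clones. Of 25144 regions in all 4 TY1 lists of the truncating clones, 650 (2.59%) were in none of the G365R and WT lists. By both rules at once it was 336 of 21726 (1.55%). Without the first R232fs clone, which has the shortest TY1 list, the TY1 rule gave 2437 regions and the HA rule 2664, and with lists of equal length they gave 647 and 901. With all clones, the 336 are 17.9% of the regions selected by HA and 51.7% of those selected by TY1. TY1 marks wild-type protein in every clone, but the truncating clones also hold the mutant protein. For the 650 regions, too, genotype and kind of list cannot be told apart.

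Where both tags gave a summit in the same clone, folds were close. In the first R232fs clone the median selected fold was 4.27 for HA and 3.92 for TY1, with the TY1 fold the higher at 40.4% of 560 regions. The second R232fs clone had medians of 3.997 and 3.97, with TY1 higher at 50.8% of 1320. The Y287X clones had 3.40 and 3.39, and 3.99 and 4.24, with TY1 higher at 56.4% of 1032 and at 61.0% of 1633. At the other HA regions TY1 was the higher at 48.8%, 72.7%, 75.6% and 83.5% in the same order. The selected regions thus had the smaller share of higher TY1 folds in 4 of 4 clones, although fold is not on one scale between lists. The choice required HA summits in every truncating clone and absence from the TY1 lists of G365R and WT cells. The selected regions were also weaker HA peaks. The part of either in this share was not tested.

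A test on ranks, which removes the scale of a list, was run over the 21726 regions with a summit in all 8 truncating lists, of which 336 are selected. The fold ranks of each list were converted to scores of a normal distribution, in which 1 unit is 1 SD of a list. The median HA minus TY1 score was 0.12 over the 336 selected regions (quartiles -0.09 and 0.35) and 0.0011 over all regions. Without pairing the lists of a clone, limma called 0 regions (0%) at an adjusted p under 0.05, and so 0 selected regions. At an unadjusted p under 0.05 it counted 2562 regions (11.8%) and 26 selected regions (7.74%). With the 2 lists of each clone paired by a replicate block, limma called 1783 regions higher for HA (8.21%) and 1819 lower (8.37%). Among the selected regions 29 of 336 were then higher (8.63%) and 4 lower (1.19%), so that the higher share is near the background and the lower share is below it. In all the paired fit called 33 selected regions (9.82%), beside 16.6% of all regions. The regions were chosen on HA presence in every truncating clone, and whether this moves the balance was not tested.

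The paired counts changed with the clones. Without the first R232fs clone limma with the replicate block called 4271 regions, of which 169 were among 967 selected regions then tested. Without the second R232fs clone it called 268 regions (3 of 447 selected), without the first Y287X clone 106 (2 of 673) and without the second 208 (2 of 386). Leaving a clone out changes the selected regions and the regions tested. The number of all regions tested without a clone is not given here. The counts of selected regions in these fits thus have no background share beside them, and no excess or lack can be read from them. Unpaired fits with all clones on ranks of −log10 p and of pileup called 38 and 1200 of 21726 regions. Among the 336 selected regions they called 1 and 2.

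The selected regions called higher for HA in the paired fit with the highest scores were of moderate fold. At chr8:39847274-39847726 the HA folds were 5.49, 4.22, 2.40 and 5.95 (first and second R232fs clone, then first and second Y287X clone) and the TY1 folds 3.60, 2.77, 2.13 and 3.67. HA was higher in each clone, by a score of 1.03 ± 0.18 (SE, limma with replicate block, adjusted p = 0.0228, and adjusted p = 0.386 without it). At chr3:38227061-38227344 the HA folds were 6.91, 5.81, 4.59 and 5.74 and the TY1 folds 5.23, 3.07, 3.08 and 4.03, a score of 1.02 ± 0.22 (limma adjusted p = 0.0316 with the block and 0.362 without). The remaining 3 named, chr6:42043244-42043780, chr1:160921249-160921549 and chr19:52052760-52053160, had scores of 0.90, 0.88 and 0.88. All 5 had a positive score difference in 4 of 4 clones, with each call lost in the unpaired fit on ranks of fold. By fold itself, TY1 was the higher in the second Y287X clone at the regions on chromosomes 6 and 19. The HA and TY1 folds there were 4.12 and 4.30, and 4.13 and 4.34. HA had the higher fold in the other clones of these regions and in every clone of the rest.

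Of the 4 regions called lower, chr1:10302891-10303373 had HA folds of 3.36, 3.20, 4.25 and 3.97 in the same clone order. Its TY1 folds were 7.90, 5.22, 7.27 and 8.28, above the HA fold in each clone. The score difference was -0.76 ± 0.12 (SE, limma with replicate block, adjusted p = 0.0209, and adjusted p = 0.373 without it). The others were chr7:3022494-3022776 (-0.77), chr9:135652108-135652363 (-0.72) and chr19:33961731-33962054 (-0.63). The region on chromosome 7 had a negative score in 3 of 4 clones, with 0.04 in the first Y287X clone. At the other 3 regions wild-type RUNX1 ranked above the truncated protein in 4 of 4 clones. With ranks of fold all 4 calls were lost without pairing, and with ranks of pileup the unpaired fit called the region on chromosome 1 lower (limma adjusted p = 0.0389).

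Frameshift and stop codon were not told apart by HA strength. In the 4 HA lists limma called 0 of 29789 regions (0%) at an adjusted p under 0.05 between R232fs and Y287X, and 0 of the 1875 selected regions, whose lowest adjusted p was 0.971. At an unadjusted p under 0.05 it counted 1370 regions (4.6%) and 119 selected regions (6.35%). With a block on the replicate number, which pairs clones that share only that number, it also called 0, with 2090 regions (7.02%) and 161 selected regions (8.59%) at an unadjusted p under 0.05. The median R232fs minus Y287X score was -0.12 over selected regions (quartiles -0.39 and 0.17) and 0.01 over all regions. With 2 clones a genotype this does not show that the truncated proteins bind alike.

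Most of the strongest selected regions lay beside summits of the other lists, which ranged from weaker to stronger than the HA peaks. Absence of a summit within the region does not mean absence of a peak, since a peak can reach into the region from a summit further away. A whole peak of at least 1 G365R or WT list overlapped 108 selected regions (5.76%), and peaks of all 6 lists overlapped 37. By list the count was 43 and 48 for G365R HA, 87 and 82 for G365R TY1, 58 for WT HA and 90 for WT TY1. The HA lists of these cells are shorter than their TY1 lists, and the part of this in the counts was not tested. The share of overlapped regions was highest among the strongest regions. It was 6.06% of regions with a median HA fold under 3, 3.02% from 3 to 4, 5.09% from 4 to 5, 8.53% from 5 to 7 and 32.7% from 7 up. Of the 14 regions with a fold of 10 or more, 10 (71.4%) were overlapped, 9 of them by peaks of all 6 lists. The overall share depends on the window, at 16.4% with 50 bp and 0.694% with 250 bp each side.

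These neighbours are seen at 8 of the 10 selected regions with the highest median HA fold. At rank 2, chr17:26912740-26912994 had HA folds of 22.8, 20.2, 24.9 and 39.3 in the first and second R232fs and first and second Y287X clone. All 6 G365R and WT lists had a peak over it, with folds of 13.0 to 17.9 and summits 306 to 387 bp away on one side. TY1 summits of both second clones lay in the region (folds 27.3 and 52.3), while those of both first clones lay 386 bp (R232fs, fold 44.0) and 390 bp (Y287X, fold 35.5) away. The TY1 summits of the truncating clones were thus split between the selected position and the position of the G365R and WT summits.

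At rank 5, chr2:136893711-136893946 had HA folds of 22.8, 19.5, 11.5 and 15.1. Peaks of the 6 G365R and WT lists over it were stronger, with folds of 25.9 to 35.4 and summits 428 to 480 bp away. Its TY1 summit in the first R232fs clone was also outside, 436 bp away with a fold of 43.2, and the other 3 TY1 summits were inside. At rank 3, chr17:79399036-79399239 had HA folds of 28.3, 18.1, 21.7 and 23.1 and TY1 folds of 29.8, 17.7, 23.3 and 28.3 at the same position. G365R and WT summits lay 249 to 286 bp away, with folds of 5.60 to 8.97. Ranks 6 to 10 were chr8:68881221-68881554, chr20:57828943-57829197, chr12:111763700-111763999, chr10:90031255-90031484 and chr6:32145607-32145842, with median HA folds of 15.9, 14.6, 14.3, 13.0 and 12.8. Peaks of all 6 G365R and WT lists overlapped the first 4 of these and peaks of 3 lists the last, with folds of 4.44 to 7.05.

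**Figure D4:**
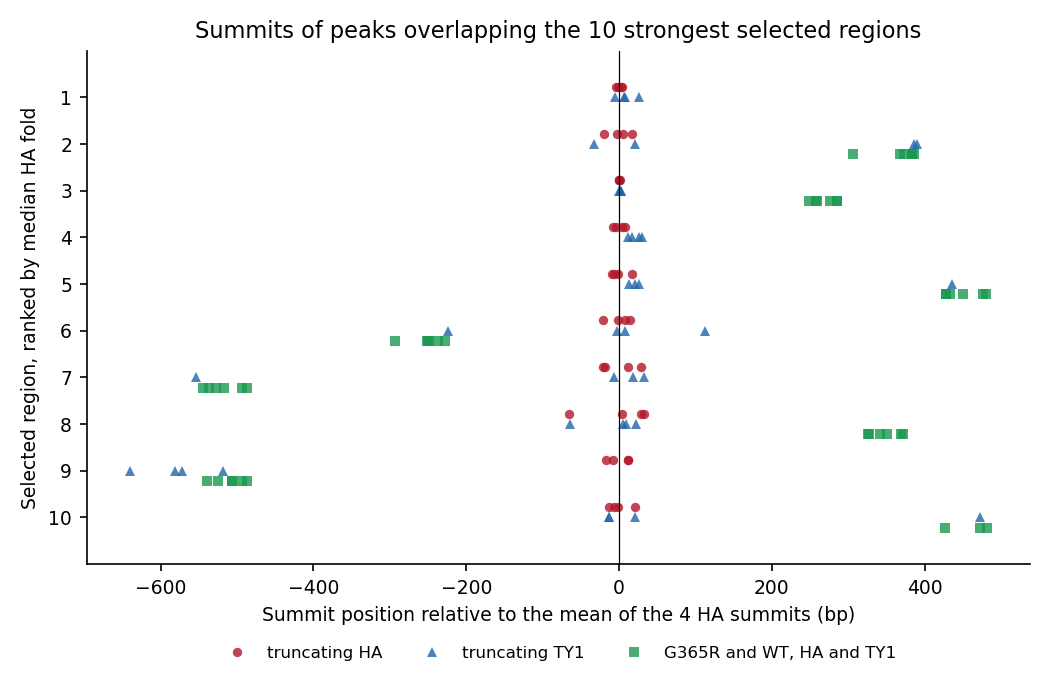
Position of the summit of each peak that overlaps one of the 10 strongest selected regions, in bp from the mean of the 4 HA summits, with 1 row per region ranked by median HA fold. Red circles are truncating HA lists, blue triangles truncating TY1 lists and green squares the G365R and WT lists; green squares lie 227.5 to 544.5 bp from the mean HA summit at 8 regions and are missing at ranks 1 and 4.

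The regions of rank 1 and 4 had no such neighbour. The first, chr1:91852835-91853066, had HA folds of 44.2, 31.7, 15.6 and 33.7 on a median background of 10.8 fragments per base. TY1 folds of the same clones were 15.2, 21.2, 12.1 and 22.2, at the same place and lower in each clone. The HA peaks of this region were 321, 316, 300 and 320 bp wide, below the selected medians of 430, 478, 373 and 464 bp. Artefact-prone stretches were not removed, and whether this region lies in one was not tested. The nearest G365R or WT summit was 17187 bp away. At rank 4, chr18:34174570-34174808 had HA folds of 14.3, 28.8, 5.38 and 21.3 and TY1 folds of 7.14, 18.2, 3.42 and 20.6, again lower in each clone. Its nearest G365R or WT summit was 22306 bp away. The first clone was the lower of each genotype's pair under both tags there.

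Among regions with a TY1 summit in all 4 truncating clones, the fifth strongest was chr11:112745674-112745983. It had HA folds of 7.52, 11.6, 10.7 and 9.57 and TY1 folds of 11.8, 19.6, 11.5 and 12.1, and its nearest G365R or WT summit was 79293 bp away. The first 4 of that class are among the 10 strongest regions described above. Among the strongest regions with no overlapping G365R or WT peak, 2 more were chosen after values were seen. At chr22:32272058-32272368 HA folds were 3.86, 25.3, 10.1 and 12.4, a wide spread within R232fs, and TY1 folds were 25.3, 10.1 and 16.4 in the 3 clones with a summit. At chr12:63377546-63377790 HA folds were 9.59, 5.67, 7.05 and 9.78 and TY1 folds 6.08, 6.53, 6.43 and 9.12.

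Regions with no TY1 summit were, at their strongest, regions with a displaced TY1 summit. The 5 highest by HA fold were chr10:90031255-90031484 (median fold 13.0), chr2:112251978-112252192 (11.4), chr5:75698805-75699037 (8.30), chr1:101777610-101777875 (7.32) and chr2:182321723-182322018 (5.09). Each was overlapped by whole TY1 peaks of 3 or 4 truncating clones and by peaks of 4 to 6 G365R and WT lists. At chr2:112251978-112252192 the HA folds were 10.8, 12.6, 7.58 and 12.1, and the 4 TY1 summits lay 565 to 604 bp away with folds of 11.7 to 19.4. The G365R and WT summits lay 550 to 656 bp away with folds of 2.51 to 8.93. At chr5:75698805-75699037 the HA folds were 8.27, 10.1, 4.65 and 8.33, the TY1 summits 471 to 527 bp away with folds of 11.5 to 19.3. In these regions the HA summit and the TY1 summit of the same cells were called at different places, and the TY1 peaks that reached into the 5 regions were 899 to 3220 bp wide. Of all 89 regions without a TY1 summit, 24 were overlapped by a truncating TY1 peak and 65 were not, and the median distance to the nearest truncating TY1 summit was 2213.5 bp.

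Without the 108 overlapped regions the values changed little. The remaining 1767 regions had a mean TY1 share of 60.7 ± 24.5% over the 4 clones (SD, n = 4) and a median HA fold of 3.69. Of these, 79 were in no TY1 list, 318 in all 4 and 4 had a fold of 10 or more. The highest fold among them was still 32.7, whereas regions with a fold of 10 or more went from 14 to 4.

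Most selected regions were some kilobases from the nearest G365R or WT summit. The distance had a median of 6064.5 bp with quartiles of 1825 and 15070 bp. It was under 1000 bp at 283 regions (15.1%) and over 10000 bp at 665 (35.5%). For the 89 regions without a TY1 summit the median was 3626 bp. The 5 widest gaps were 439801 bp at chr6:77084393-77084924, 371266 bp at chr4:11473124-11473531, 366927 bp at chr7:9130531-9130955, 355530 bp at chr12:33616280-33616579 and 325551 bp at chr6:51017613-51017919. The last had HA folds of 4.27, 7.77, 8.74 and 15.1 and TY1 folds of 6.79, 7.94, 11.5 and 22.1. The other four had median HA folds of 2.88, 5.45, 5.27 and 3.46. The 5 narrowest gaps, 214 to 230 bp, were at chr15:40733062-40733396, chr20:42121206-42121449, chr7:32931286-32931562, chr8:68881221-68881554 and chr11:68079840-68080116. At each of these 5, peaks of 1 to 6 G365R and WT lists reached into the region.

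**Figure D5:**
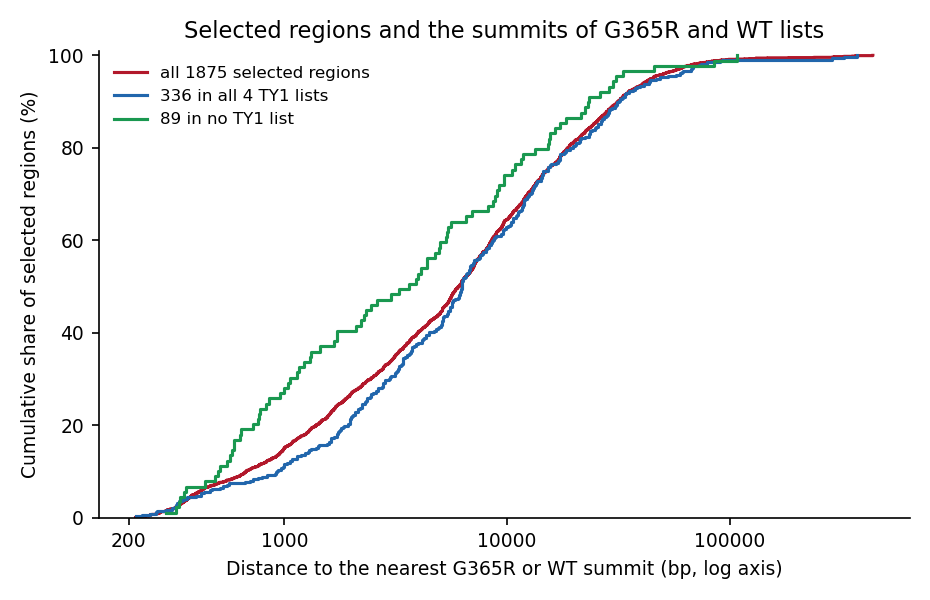
Cumulative share of selected regions (percent) by distance to the nearest summit of a G365R or WT list (bp, log axis), for all 1875 regions (red), the 336 in all 4 truncating TY1 lists (blue) and the 89 in none (green). The curve of the 89 lies to the left over most of its range, with a median of 3626 bp against 6064.5 bp for all.

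Summits of the selected regions were spread more widely than those of the other HA regions. The range of the 4 HA summits within a region had a median of 104 bp, against 54 bp. The TY1 summit lay a median of 44.6, 29.4, 37.5 and 34.3 bp from the mean HA summit in the 4 clones, against 23.8, 18.3, 21.3 and 18.5 bp. In each clone the TY1 summit was thus less tightly placed at the selected regions. Their summits carry fewer fragments, as given above, and the part of this in the spread was not tested.

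The selected regions were found on every chromosome used. Chromosome 1 had the most, 189. As a share of the regions in all 4 HA lists they ran from 2.87% on chromosome X (18 of 628) and 4.1% on chromosome 13 (27 of 659) to 8.24% on chromosome 18 (43 of 522) and 8.65% on chromosome 14 (93 of 1075). The share over all chromosomes was 6.29%. Most stood alone, but 530 (28.3%) had another selected region within 100000 bp. Their distance to the nearest region of all 14 lists had a median of 44978 bp, close to the 42971 bp of other HA regions that were not in all 14.

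The longest run held 6 selected regions over 325 kb of chromosome 18, from 831208 to 1155882. Median HA folds in it were 2.25 to 5.28 and local backgrounds 3.81 to 110 fragments per base, so that neighbouring regions were unlike. The strongest of the run, chr18:1062581-1062966, had HA folds of 4.54, 6.91, 3.43 and 6.01. A TY1 summit was found there in 3 clones with folds of 5.30, 2.28 and 2.93. Runs of 5 were found on chromosome 2, from 85047791 to 85242112 (folds 3.28 to 5.77) and from 91793887 to 91827928 (folds 2.77 to 3.54). The latter spans only 34.0 kb and had local backgrounds of 4.72 to 36.5 fragments per base, against 3.81 to 7.71 in the former. Artefact-prone stretches were not removed, and whether these runs lie in one was not tested.

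The limits of the rule cut through a continuous range. Regions with all 4 HA lists and exactly 1 G365R or WT list numbered 1588, with a median HA fold of 3.64, next to 3.70 at the selected regions. The single list was a TY1 list at most of them, namely 730 in the first and 363 in the second G365R clone and 354 in WT, and an HA list at 38, 51 and 52. Median fold in that list was 2.79. In the same order the TY1 lists held 57378, 61793 and 59452 peaks and the HA lists only 30609, 30563 and 37472. The part of list length in these counts was not tested. The mean TY1 share of the 1588 regions in the truncating clones was 71.2%, between those of the selected regions and of all other HA regions. Regions in 3 truncating HA lists and no G365R or WT list numbered 5473, with a median HA fold of 3.35 and a TY1 share of 40.4%. Of these, 3423 lacked only the first Y287X clone. At the 12107 regions in all 4 HA lists and all 6 others the median HA fold was 6.74 and the TY1 share 98.0%.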

How the data were processed

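ChIP-seq peak lists of 14 HA and TY1 libraries were used. The 7 control samples were not analysed here. The submitters' processing notes name MACS2 2.2.7.1, Bowtie2 2.2.9, CASAVA 1.8 and build hg19. The caller's settings and controls: not given in the sources used here. Each list is of 1 library, not pooled. For each peak the authors deposited the summit's position, a score, the −log10 of its q-value and p-value, and its fold over background, which is a linear ratio. Peaks off chromosomes 1 to 22 and X (1.41% to 2.17% of a list) were left out. The lowest deposited −log10 q of a list was 1.30 to 1.32.

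Pileup and background were solved from fold and −log10 p under a Poisson tail with a pseudocount of 1. Solved pileups were within 0.05 of a whole number for at least 99.99% of peaks in 12 lists, and for 8.08% and 6.84% in the first G365R TY1 and the WT TY1 list. Overlap means 1 bp or more. Coordinates count from 1. Scores were tested with limma 3.58.1 (trend, Benjamini-Hochberg adjustment over all regions of a fit, threshold 0.05) in R 4.3.3, after a check on simulated data. Other steps used Python 3.11.15, numpy 2.4.6, pandas 2.3.3, scipy 1.17.1 and matplotlib 3.10.9. Replicate numbers pair the HA and TY1 list of a clone, by the clone names of the lists. Their deviations from the group means correlated with r = 0.721 in R232fs and 0.631 in Y287X over 21726 regions, which are not independent. The fixed design has no block, and the paired fit is given beside it.

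The regions and lists were chosen with earlier results of these data known. Regions named are the 10 of highest median HA fold, the 5 highest in 0 and in all 4 TY1 lists, the 5 widest and narrowest gaps, up to 5 called in each direction, the longest run and the 3 just inside the threshold. Others are marked as chosen after values were seen. No hg19 sequence or annotation was used here, so regions are named by position only, and the planned motif and gene results were left out.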

Additional observations from a re-analysis of the deposited data

Results flagged for a closer look

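At chr11:112745674-112745983 the HA minus TY1 score was negative in both R232fs clones (-0.40 and -0.28) and positive in both Y287X clones (0.15 and 0.05). The R232fs mean was lower than the Y287X mean by a difference of -0.44. The scores of the 2 genotypes thus had opposite signs, small in Y287X, and the difference itself was not tested. By fold, TY1 was above HA in each clone (HA 7.52, 11.6, 10.7 and 9.57, TY1 11.8, 19.6, 11.5 and 12.1). The mean score over the 4 clones was -0.12 ± 0.21 (SE, unpaired limma, adjusted p = 0.852). This region was the single case of such signs among the named regions with a summit in all 8 lists.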

How the results depend on the processing

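The count of selected regions was 901 with lists of equal length (30563 peaks each) and 1304 to 2017 under the other windows, thresholds and the merging of whole peaks. Leaving out 1 clone gave 2349 to 5271, the highest without the first Y287X clone. A clone left out takes its lists out of the rule and so loosens it, and the higher counts follow largely from that. The TY1 share stayed lower at selected than at other HA regions in every alternative run, by -41.8 to -25.3 percentage points, and the R232fs minus Y287X share stayed negative, at -40.2 to -0.58. The percentile of the median selected fold was 34.3 with lists of equal length and 45.1 to 55.0 with 1 clone left out. The share overlapped by a G365R or WT peak was 16.4% with 50 bp windows, 0.694% with 250 bp windows and 7.14% with −log10 q of 3 or more. It was 15.1% when a summit within 1000 bp counted, and 3.97% to 6.64% with 1 clone left out. For HA of R232fs against Y287X limma called 0 to 1 regions with 1 clone left out, the 1 without the first Y287X clone and not a selected region, and 0 under every other alternative. For HA minus TY1 the unpaired fit called 0 regions with ranks of fold, also with 1 clone left out, 38 with ranks of −log10 p and 1200 with ranks of pileup. The replicate block, which pairs the lists of a clone, called 3602, and 106 to 4271 with 1 truncating clone left out (4271 without the first and 268 without the second R232fs clone, 106 and 208 without the first and second Y287X clone). For R232fs against Y287X, where a replicate block pairs clones that share only a number, the count was 0. Each cause was not tested. Alternatives without the overlapped regions, without backgrounds of 30 or more, and the block with clones left out were chosen after seeing the data. With 4 clones no exact test could pass the threshold, and depth is known only through the background.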
